A study of Mus musculus with 8 samples.

Results

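Isolated CGs at zero in DBA were single CG cytosines that were methylated in the liver of a B6 female and had no methylated read in the liver of a DBA female, with no other CG nearby showing the same difference. They were chosen from autosomal CGs with at least 10 reads in both female parents, by a DBA level of exactly 0, a B6 level more than 0.50 higher, and no other CG with a difference above 0.50 within 100 bp. The cytosine on the opposite strand of the same CG was not counted as another CG. The rule gave 2102 cytosines in 2024 CG dinucleotides, of 859630 CGs that could be tested (0.245%). They made up 48.1% of the 4368 CGs that were more than 0.50 higher in B6, and another 398 CGs at zero in DBA had a second such CG within 100 bp. The comparison sets were the 1206 isolated CGs with a DBA level above zero and the 1060 clustered CGs, which had another differing CG within 100 bp.

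Reduced representation bisulfite sequencing (RRBS) was performed on liver DNA from 8 mice, 1 female and 1 male each of C57BL/6J (B6), of DBA/2J (DBA), and of their reciprocal F1 crosses BXD (B6 mother) and DXB (DBA mother). All mice were 16 weeks old and had been fasted for 16 hours, and each library came from 1 animal. By the labels, parents carried 2 chromosomes of their own strain and F1 mice 1 of each (the library labelled B6 male held DBA stretches), so the strains could be compared between parents and also within each F1 animal. Reads that covered a known SNP had been assigned by the authors to B6 or to DBA, and are called B6-tagged and DBA-tagged below. Liver holds several cell types, and this assay reads no marker that tells them apart.

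RRBS reads DNA from the MspI cut, CCGG, so each read begins at the CG of a cut site. Bisulfite turns unmethylated cytosine into uracil, which is sequenced as T, while methylated cytosine stays C. A C-to-T difference between strains therefore gives the same letter as an unmethylated cytosine on the strand it sits on. In mammals methylation lies mainly on the cytosines of CG dinucleotides, both strands of a CG are usually methylated together, and neighbouring CGs tend to share a level. The question was whether CGs that stood alone showed what a strain variant in the CG would give: neighbours, the opposite strand, the F1 mice and the tagged reads. The DBA sequence itself was not used here, and whether a variant lay in these CGs was not tested.

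The reference reads of 5 isolated CGs are printed below because all 4 F1 mice had tagged reads of both chromosomes at them, and because the neighbouring CGs on the same read can be compared with the isolated one. They are the B6-derived mm9 reference (NCBIM37), each starting at the first base after the MspI cut, 5′ to 3′ on the strand that was read, with every CG in capitals. The Galnt14 read was chr17:74020521-74020620 on the plus strand with its isolated CG at base 45, and the Crim1 read was chr17:78761942-78762041, plus, at base 44. The Zfat read was chr15:68041963-68042062, plus, at base 28. The read in the overlapping genes Wdr96 and Itprip was chr19:47990220-47990319, minus, at base 49, and the Selp read was chr1:166070116-166070215, minus, at base 10. All 5 CGs were in introns.
Galnt14: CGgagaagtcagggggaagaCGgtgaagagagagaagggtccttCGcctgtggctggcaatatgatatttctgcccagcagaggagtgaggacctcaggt
Crim1: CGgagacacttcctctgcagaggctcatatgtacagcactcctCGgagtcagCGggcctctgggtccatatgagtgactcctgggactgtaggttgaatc
Zfat: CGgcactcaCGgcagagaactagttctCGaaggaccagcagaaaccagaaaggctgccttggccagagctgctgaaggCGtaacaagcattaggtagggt
Wdr96 and Itprip: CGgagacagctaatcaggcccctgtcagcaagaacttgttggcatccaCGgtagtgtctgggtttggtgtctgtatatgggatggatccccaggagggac
Selp: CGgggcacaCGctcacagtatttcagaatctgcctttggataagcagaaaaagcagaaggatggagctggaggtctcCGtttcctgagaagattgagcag

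On the Galnt14 read, in the gene of an enzyme that starts mucin-type O-glycosylation, the CG at base 1 had a methylation level of 100% in the B6 female and 98.3% in the DBA female. The CG at base 21 had 87.5% and 84.7%. The isolated CG, at base 45, had 83.6% in the B6 female (95% interval 76.7 to 89.1, 152 reads) and 0% in the DBA female (118 reads, upper limit 3.08%). Within the same molecules, 1 CG of 3 was thus at zero in DBA and both CGs before it were not. On the Zfat read, in the gene of a zinc-finger and AT-hook protein, the CGs at bases 1, 10 and 79 had 100%, 90.2% and 96.0% in the DBA female, around an isolated CG at 0% of 51 reads. The Selp read, in the gene of the adhesion molecule P-selectin, had 94.7% and 78.7% at its first and last CG in the DBA female and 0% of 169 reads between them.

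In the F1 mice the isolated CGs of these 5 reads were at 31% to 54.5%, between the parents, and the other CGs with values on the same reads were at 71.2% or more. The Galnt14 CG had 42.9% in the BXD female, 49.3% in the BXD male, 47.5% in the DXB female and 38.6% in the DXB male, and its first neighbour had 97.4% to 99% in the same mice. Tags split that middle level into a high and a low chromosome. The B6-tagged level at Galnt14 was 84.6%, 87.9%, 88.8% and 80% in the BXD female, BXD male, DXB female and DXB male, and the DBA-tagged level was 2.94%, 0%, 0.909% and 0%. The tags did not overlap in any of the 4 mice, and they differed by 84.4 points (SE 1.89, limma adjusted p = 0.00012).

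Read depth set how firmly a zero could be stated. The 2102 isolated CGs had a median of 34 reads in the DBA female (range 10 to 363), for which 0 methylated reads allowed a level of up to 10.3% at the median (upper exact 95% limit) and up to 30.8% at 10 reads. In all, 413 had fewer than 15 reads. Over the 8 libraries the mean coverage of an autosomal CG was 40.8 to 82.1 reads, and intervals cover counting error only. How far a read reached differed by library. Isolated CGs were read up to base 100 of the fragment in both female parents and the BXD male, up to base 76 in the male parents, and up to base 50 in the other 3 F1 mice, where the 1044 isolated CGs past base 50 had no value. The pooled level of cytosines outside CGs, a measure of incomplete conversion, was 0.404% to 1.21% by library.

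Across the 8 mice the levels formed a high, a middle and a low band. The median level was 87.7% in the B6 female (n = 2102 CGs, range 50.5% to 100%) and 81.7% in the library labelled B6 male (n = 1068 with at least 10 reads). It was 43.1% in the BXD female (n = 972), 43.3% in the BXD male (n = 1679), 42.6% in the DXB female (n = 956) and 42.9% in the DXB male (n = 958). It was 0% in the DBA male (n = 582), in which 380 of the CGs had no methylated read. The female parents chose these CGs, so their levels are a description. The other 6 animals did not enter the rule.

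**Figure D1:**
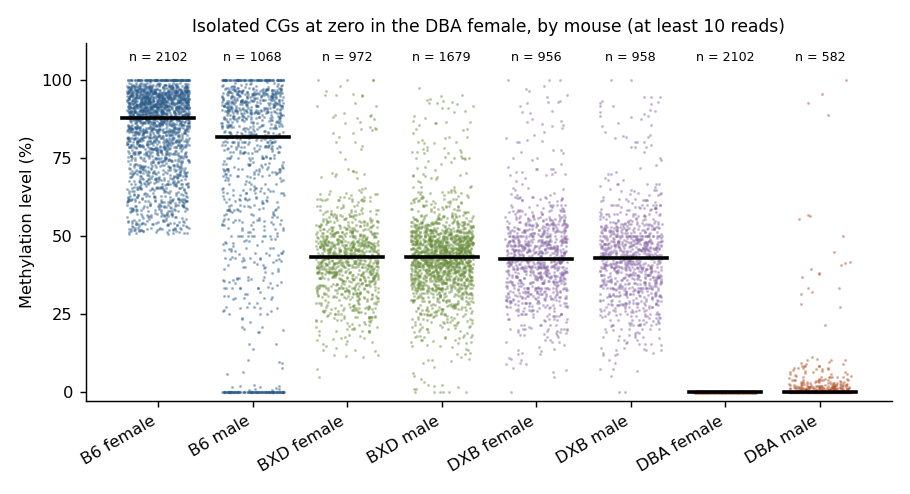
Methylation level (%) of each isolated CG with at least 10 reads, by mouse; points are CGs and black bars medians. The 4 F1 mice centred on 42.6% to 43.3%, the DBA male on 0%, and the library labelled B6 male had a high band and a second band at zero.

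The DBA male, another animal of the strain, was low at nearly all isolated CGs. Of the 582 with at least 10 reads, 525 (90.2%) were below 5%, against 41% of all tested CGs, 40% of clustered CGs and 37.7% of isolated CGs above zero in the DBA female. An isolated CG had to be at zero in the DBA female, and only 398 of the 1060 clustered CGs were. The rule by itself thus favours the larger share, and clustered CGs at zero were not taken separately. A level above 50% was found at 7 of the 582 isolated CGs. The highest of those with at least 20 reads were chr7:15542803, at 95.7% of 46 reads in the DBA male against 0% of 14 reads in the DBA female, and chr4:109859721, at 92.5% of 40 reads against 0% of 11. Next was an intronic CG of Cyp26c1, which encodes a retinoic acid hydroxylase, at 56.8% of 44 reads against 0% of 10. These 3 rested on fewer than 15 reads in the DBA female, as did 4 of the 7, but the others did not. At chr1:23670071 the DBA male had 100% of 16 reads and the DBA female 0% of 138 reads.

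Male parents were compared by the study's binomial rule, in which both mice need at least 10 reads, each level lies outside the exact 95% interval of the other, and the difference exceeds 50 points. Of 459 isolated CGs that could be tested, 335 (73.0%) were higher in the B6 male and 0 in the DBA male. Over all 316662 autosomal CGs tested the same call was made at 0.315%. Of clustered CGs 103 of 261 were called, and of isolated CGs above zero 97 of 207. The library labelled B6 male held stretches of DBA chromosome, as read from its tags: in 146 of 1657 windows of 1 Mb at least 90% of tagged calls were DBA, and in 1205 at most 10% were. Where at most 10% of tags were DBA, 285 of 315 isolated CGs were called (90.5%, background 0.460%). Where at least 90% were DBA, 1 of 44 was called (background 0.0576%).

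The level in the library labelled B6 male followed its local tags. In windows with at most 10% DBA tags its median at isolated CGs was 87.5% (n = 747), with 2 CGs below 10%. In windows with at least 90% DBA tags the median was 0% (n = 88), with 84 CGs below 10%, and in windows with a mixture it was 50% (n = 215). Over the same windows the B6 female was at 88.5%, 88.6% and 87.7%. A coding CG of Fat4, an atypical cadherin of planar cell polarity, lay in a window with at least 90% DBA tags. It had 0% of 124 reads in the library labelled B6 male, against 94.5% of 91 reads in the B6 female. Outside those windows, 44 of 980 isolated CGs were also at 0% there, of which 40 lay in windows of mixed tags, 3 in windows with few tags and 1 where at most 10% of tags were DBA. With at least 20 reads there were 34, among them a non-coding exon of 4832428D23Rik and an intron of Dfna5, in windows of mixed tags, and chr6:43912740, in a window with few tags.

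F1 mice carried 1 B6 and 1 DBA chromosome, and their level at isolated CGs was about 0.5 of the B6 female level. The median ratio was 0.505 in the BXD female, 0.507 in the BXD male, 0.501 in the DXB female and 0.499 in the DXB male. Isolated CGs above zero had ratios of 0.554, 0.525, 0.545 and 0.543, which were 0.515 to 0.525 outside CCGG, and clustered CGs had 0.611, 0.544, 0.579 and 0.557. The level 0.5 of B6 lay inside the exact 95% interval of the F1 level at 81.5%, 78.9%, 86.0% and 85.5% of isolated CGs. For clustered CGs, whose DBA level was often above zero, the mean of the female parents lay inside at 67.6%, 60%, 70.6% and 69.6%, and for isolated CGs above zero at 76.5%, 70.4%, 80.3% and 78.5%. Of the 733 isolated CGs with at least 10 reads in all 4 F1 mice, 572 (78.0%) had all 4 ratios between 0.25 and 0.75. Of 401 clustered CGs 229 did (57.1%). Only 398 of the 1060 clustered CGs were at zero in the DBA female, so the rule by itself favours the larger share. The SD of the ratio over the 4 mice was 0.0774 at the median isolated CG.

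**Figure D2:**
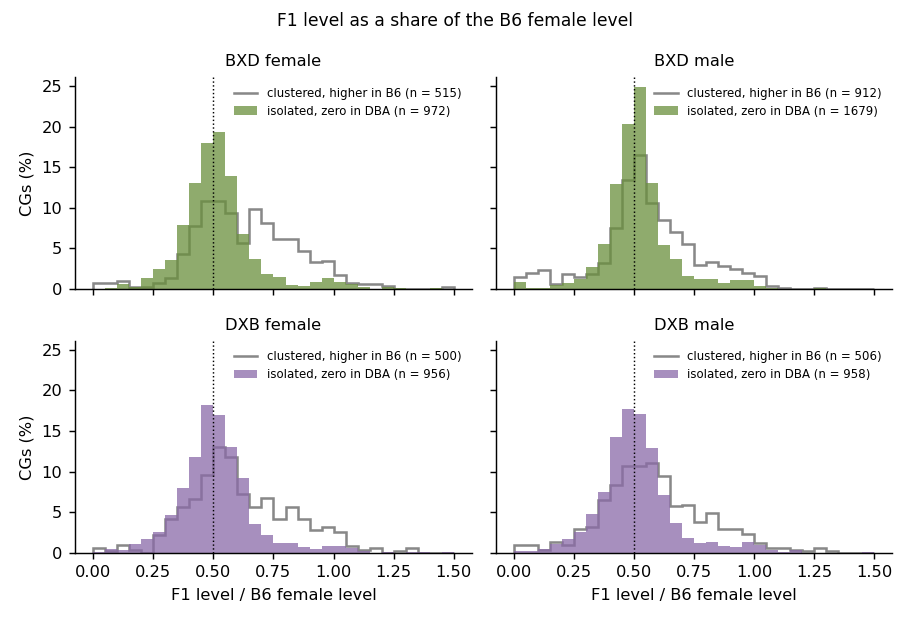
Share of CGs (%) by the F1 level divided by the B6 female level, 1 panel per F1 mouse; filled bars are isolated CGs and grey outlines clustered CGs, values above 1.5 stand in the last bin, and the dotted line marks 0.5. Isolated CGs gathered at 0.5 in all 4 mice, while clustered CGs, whose DBA level was often above zero, spread further towards 1.

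Direction of the cross was tested with limma on the levels of the 2 BXD and 2 DXB mice. No CG of 479316 passed an adjusted p of 0.05 (background 0%), and 0 of the 733 isolated CGs did. An unadjusted p below 0.05 was found at 58 isolated CGs (7.91%) and at 31497 of all CGs (6.57%). With 2 mice per cross the test had little power, and its count does not show equal levels. The median BXD minus DXB difference over isolated CGs was 0.0872 points, and 47 of them (6.41%) were more than 20 points apart, against 1.14% of all CGs. Isolated CGs lay in the middle of the range in F1 mice, where counting error is larger than at its ends. A background of CGs at a like level was not drawn.

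Coding exons held 168 isolated CGs, and the 8 read most deeply in all 8 mice had values at every animal. A CG of Sun2, an inner nuclear membrane protein that couples the nucleus to the cytoskeleton, had 77.0% and 86.9% in the B6 female and male and 0% and 2.06% in the DBA female and male. Its F1 levels were 49.4%, 38.3%, 39.6% and 34.6% in the BXD female, BXD male, DXB female and DXB male. A CG of Dnahc5, a dynein heavy chain of motile cilia, had 94.7% and 99% in B6, 0% in both DBA mice, and 47.8%, 53.9%, 45.1% and 45.9% in the F1 mice. In neither gene did the F1 mice overlap either parental strain. The Dnahc5 sequence, chr15:28275551-28275590 on the plus strand, and the Sun2 sequence, chr15:79555900-79555939, plus, are shown with the isolated CG in capitals as examples of coding CGs.
Dnahc5: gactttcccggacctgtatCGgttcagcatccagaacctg
Sun2: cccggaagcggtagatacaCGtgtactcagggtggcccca

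Parp4, which encodes the ADP-ribosyltransferase of vault particles, had 93.0% and 97.4% in the B6 mice, 0% and 3.77% in the DBA mice and 36.6% to 49.0% in the F1 mice. Fam189a2 had 92.6% and 95.6% in B6, 0% in both DBA mice and 36.4% to 52.7% in the F1 mice. Gm962 had 80.4% and 78.3% in B6, 0% in both DBA mice and 31.1% to 48.5% in the F1 mice. All 3 kept the 3 bands apart. A CG of 9030624J02Rik had 94.3% and 96.9% in B6, 0% in both DBA mice, 40.4% to 45.4% in 3 F1 mice and 63.5% in the BXD male. Zfp84, a zinc-finger gene, was lower throughout, with 67.6% and 42.1% in B6, 0% in both DBA mice and 25% to 34.3% in the F1 mice. The exact 95% intervals of the levels of these 8 coding CGs, Fat4 included, spanned 14.4 points at the median and 37.4 at most.

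Tagged reads gave the B6 and the DBA chromosome of 1 animal separately, in mice the rule had not used. Isolated CGs with at least 10 reads of each tag had a median B6-tagged level of 87.0% in the BXD female (n = 408), 87.5% in the BXD male (n = 873), 86.7% in the DXB female (n = 376) and 85.7% in the DXB male (n = 380). Their median DBA-tagged level was 0% in all 4, as it was at isolated CGs above zero and at clustered CGs. Summed over isolated CGs at zero, the DBA-tagged level was 0.830%, 0.488%, 0.984% and 0.787%, from 17344, 57996, 12201 and 11567 reads. Summed over isolated CGs above zero it was 3.20% to 3.46%, and over clustered CGs 5.78% to 7.36%. Outside CGs the DBA-tagged level in the same mice was 0.830% to 1.93%. By the binomial rule B6 was higher at 385 of 408 (94.4%, background 5.46%), 847 of 873 (97.0%, background 4.44%), 361 of 376 (96.0%, background 5.76%) and 361 of 380 (95%, background 5.58%). No isolated CG was called higher on DBA in any of the 4 mice, and none had a B6-tagged level below its DBA-tagged level. Isolated CGs above zero were called at 90.3% to 92.5%, close to these shares, and clustered CGs at 80.9% to 87.0%.

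**Figure D3:**
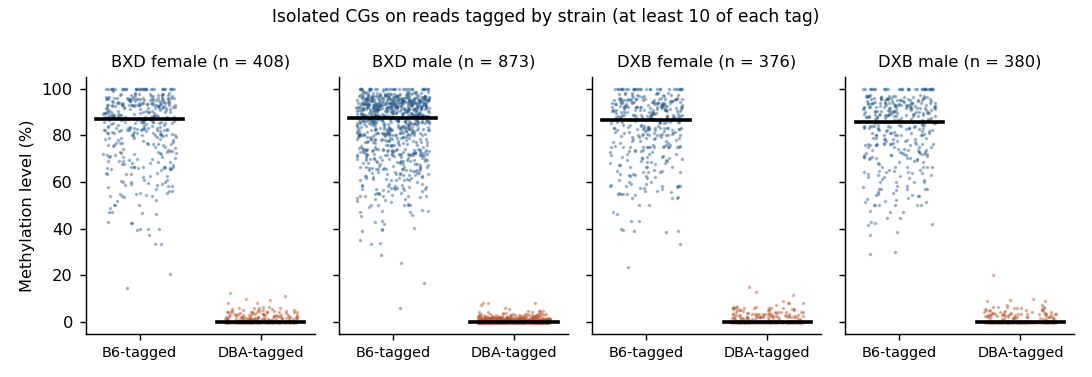
Methylation level (%) of isolated CGs on B6-tagged and DBA-tagged reads in each F1 mouse, for CGs with at least 10 reads of each tag; points are CGs and black bars medians. B6-tagged medians were 85.7% to 87.5% and DBA-tagged medians 0%, which they also were in both comparison sets (not drawn).

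Over the 4 F1 mice together, limma with mouse as a block found the B6-tagged level higher at 246 of 250 isolated CGs, by more than 50 points with an adjusted p below 0.05. The background was 5.60%, 541 of 9661 CGs with tags in all 4 mice, and 12 CGs, none of them isolated CGs, were higher on DBA. The median difference was 86.4 points over isolated CGs (median SE 2.41) and 0.128 over all CGs tested. The 4 without a call differed by 26.7 to 49.8 points, and 2 of these, chr5:92794098 and chr17:28143221, had adjusted p of 0.00652 and 0.00396 below the required size. At Zfat the tags differed by 95 points (SE 1.25, adjusted p = 3.98e-05), from B6-tagged levels of 93.3% to 98.4% and DBA-tagged levels of 0% to 1.08%. Selp differed by 85.9 points (SE 0.945, adjusted p = 3.09e-05). Crim1, a membrane regulator of bone morphogenetic proteins, differed by 65.5 points (SE 3.29, adjusted p = 0.00113), with B6-tagged levels of 56.8% to 74.4%. The CG in Wdr96, a cilium gene, and Itprip, an inositol trisphosphate receptor partner, differed by 69.2 points (SE 2.22, adjusted p = 0.000279).

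Most isolated CGs lay on tagged fragments. At least 90% of the B6 female reads carried a tag at 1212 of them (57.7%), against 5.88% of all tested CGs, 46.5% of clustered CGs and 53.2% of isolated CGs above zero. Tags are SNPs other than C to T, so a tag says only that some base of the fragment differed between the strains. Which base it was, the G of the same CG included, was not tested. The 889 isolated CGs without any tagged read had a middle level in F1 mice too. Their median ratio to the B6 female was 0.505 in the BXD female, 0.5 in the BXD male, 0.482 in the DXB female and 0.478 in the DXB male. Tagged isolated CGs had 0.506, 0.515, 0.522 and 0.514. B6 gave 51.7% to 53.7% of the tagged reads at isolated CGs with at least 10 reads in the 4 mice, and 50.5% to 51.9% at those with at least 10 reads of each tag.

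Neighbouring CGs of the isolated ones were methylated in both strains. The rule held their difference to at most 0.50 but did not fix their level. Over 6785 pairs at 2077 isolated CGs, the neighbour had a median of 90.7% in the B6 female and 90.3% in the DBA female. The median difference was 0 points, and 75.3% lay within 10 points, against 85.2% of all tested CGs. Of all tested CGs 39.2% were below 10% in the B6 female, and a background at a like level was not drawn. Neighbours of isolated CGs above zero had medians of 89.3% and 87.4%, a median difference of 1.35 points, and 70.2% within 10 points. Every neighbour was at 50% or more in the DBA female at 1821 isolated CGs (87.7%), and every neighbour was below 10% at 11. Neighbours of clustered CGs had a median difference of 41.8 points, which the grouping itself favours.

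**Figure D4:**
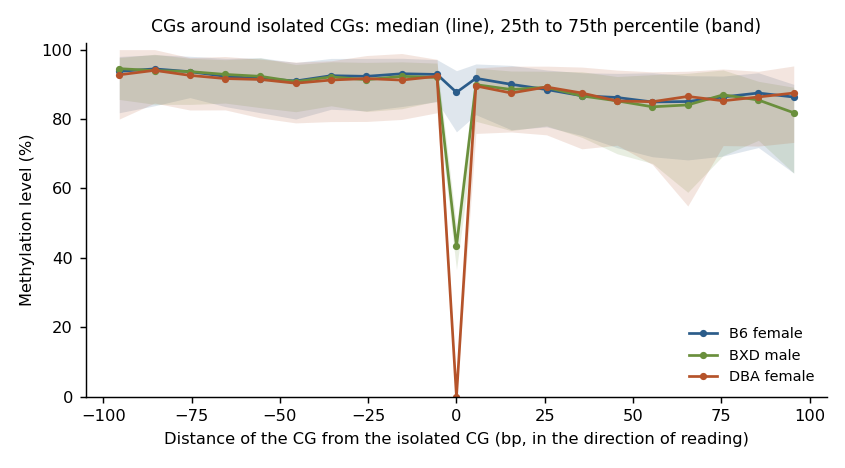
Median methylation level (%) of CGs on the same strand by distance in bp from the isolated CG, which is at 0, in 10-bp steps for the B6 female, the BXD male and the DBA female; bands run from the 25th to the 75th percentile. The DBA female fell to 0% and the BXD male to 43.3% at the isolated CG, and all 3 mice lay between 81% and 95% at every other step.

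The opposite strand is read from other molecules. At 194 isolated CGs both female parents had at least 10 reads of the opposite cytosine, and in the DBA female it was at zero in 163 (84.0%), against 38.4% of all tested CGs and 44.3% of clustered CGs. The opposite strand differed by more than 50 points at 182 of the 194 (93.8%, background 0.353%). These counts rest on the opposite strand not ending isolation, and 156 of the 194 are both strands of 78 dinucleotides, whose opposite values the rule itself used. With 1 strand per dinucleotide, 85 of 116 (73.3%) were at zero and 104 (89.7%) differed by more than 50 points. At the 38 whose opposite strand was no isolated CG, 7 (18.4%) were at zero and 26 (68.4%) differed by more than 50 points, shares that leaving out the pairs of isolated CGs lowers by itself, so neither reading gives a share at zero that is free of the rule. If the opposite strand counts as another CG, 12 remain, with 7 at zero and, by that reading, 0 above 50 points. In the BXD male, which the rule did not use, both strands of the 78 dinucleotides differed by a median of 4.29 points, and the opposite strand at the 38 was at 0.517 of the B6 female level. An intronic CG of Wnt5b, a Wnt ligand, had 88.8% and 93.2% on its own and the opposite strand in the B6 female, 0% and 1.18% in the DBA female, and 50.4% and 43.2% in the BXD male. The intronic CG of Arhgap10 had 92.5% and 81.9%, 0% and 0%, and 50.6% and 43.7%. At chr9:101661593 the values were 88.7% and 90.4%, 0% and 1.87%, and 40.4% and 42.4%. Both strands of the CG at chr4:17099162 were isolated CGs, at 90.4% and 86.2% in the B6 female, 0% and 0% in the DBA female, and 42.3% and 50.6% in the BXD male.

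A further group of isolated CGs had an opposite strand that was read in B6 and not in DBA. Of the 381 with at least 10 opposite-strand reads in the B6 female, 68 (17.8%) had none in the DBA female, against 2.50% of all tested CGs and 13.9% of clustered CGs. Of the F1 mice, the BXD male had at least 10 opposite-strand reads at all of these CGs. Its opposite-strand level was 0.509 of the B6 female level at the 194 CGs and 0.989 at the 68, while the isolated strand was at 0.501 and 0.498. Because 156 of the 194 are both strands of 78 dinucleotides, the same values enter both strands there. At the other 38 the opposite strand was at 0.517. In the BXD female, DXB female and DXB male few could be measured, with opposite-strand ratios of 0.788 (n = 8), 0.708 (n = 9) and 0.790 (n = 6) at the former and 0.969 (n = 6), 1.01 (n = 4) and 0.802 (n = 4) at the latter, so the separation was seen in 1 mouse. At an intronic CG of Cntn4, a neural adhesion molecule, the BXD male had 37.6% of 218 reads on the isolated strand and 79.6% of 113 reads on the opposite one, where the B6 female had 83.1% and 82.2%. At Cdh4, a classical cadherin, it had 45.1% and 81.7%, and the B6 female 88.0% and 88.7%. The CG 3144 bp from Cdc42bpg, a kinase that acts downstream of Cdc42, had 41.8% and 96.2%, and 89.6% and 96.8% in the B6 female. A CG at chr7:123798170 had 40.3% and 83.2%, against 71.7% and 64.1%. At all 4 the isolated strand was near 0.5 of B6 and the opposite strand was near or above the B6 level. These CGs were taken for having no opposite-strand read in the DBA female. The opposite-strand level of the BXD male may therefore come from the B6 chromosome alone. Which chromosome gave those reads was not tested.

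The sequences of Wnt5b, chr6:119484631-119484670 on the plus strand, and Arhgap10, chr8:79855793-79855832, plus, stand for CGs at or near zero on both strands in DBA. Those of Cntn4, chr6:106197657-106197696, plus, and Cdh4, chr2:179288160-179288199, minus, stand for CGs whose opposite strand had no DBA read. Each is the mm9 reference of the isolated strand with its CG in capitals.
Wnt5b: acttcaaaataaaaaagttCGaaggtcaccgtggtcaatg
Arhgap10: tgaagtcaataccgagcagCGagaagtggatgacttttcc
Cntn4: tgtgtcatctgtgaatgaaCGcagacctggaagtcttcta
Cdh4: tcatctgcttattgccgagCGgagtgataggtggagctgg

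**Figure D5:**
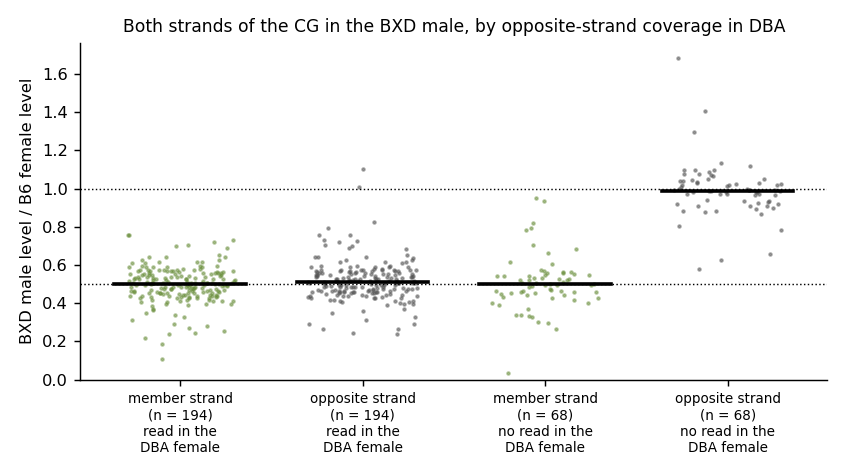
BXD male level divided by the B6 female level on the isolated strand and the opposite strand, for CGs whose opposite strand had at least 10 reads (n = 194) or no read (n = 68) in the DBA female; points are CGs and black bars medians. The opposite strand was at 0.509 in the first case and 0.989 in the second, where the BXD male reads may come from the B6 chromosome alone. In the first case 156 of the 194 are both strands of 78 dinucleotides, so these values are drawn on both strands.

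Some isolated CGs were the first CG of a read, inside the CCGG that MspI cuts. There were 49 of these (2.33%), against 29.9% of all tested CGs and 42.4% of those above 50% in the B6 female. In the BXD male their median ratio to the B6 female was 0.9 (n = 41), and it was 0.506 at isolated CGs outside CCGG (n = 1638). In the BXD female, DXB female and DXB male the ratios inside CCGG were 0.568, 0.472 and 0.429. Of 11 isolated CGs with all 4 F1 mice above 0.75, 7 were inside CCGG. Among the 733 with at least 10 reads in all 4 F1 mice, 4 of the 5 whose pooled F1 level was farthest from 0.5 of B6 were first bases. These included a UTR position of Tmcc2, with 62.1% of 95 reads in the B6 female, 0% of 41 reads in the DBA female and 71.7% to 80.8% in the F1 mice. An intronic one of Arhgef4 had 82.5%, 0% of 32 reads and 79.8% to 87.5%. The first base at chr5:47970532 had 94.7%, 0% of 71 reads and 92.5% to 98%, and that at chr13:82471905 had 93.6%, 0% of 10 reads and 89.5% to 100%. At Tmcc2, chr5:47970532 and chr13:82471905 no F1 read was tagged, so the chromosome read there could not be told. At Arhgef4 nearly all F1 reads were B6-tagged. DBA-tagged reads there numbered 7 in the BXD male and 0 in the BXD female, DXB female and DXB male. Why so few DBA-tagged reads were seen at Arhgef4 was not tested. The CG that was no first base was that of Cyp26c1, with 51.4% in the B6 female and 43.8% to 62.5% in the F1 mice.

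Further into the read the share of isolated CGs changed little. From bases 2 to 20, 21 to 40, 41 to 60, 61 to 80 and 81 to 100 they made up 0.352%, 0.347%, 0.329%, 0.349% and 0.327% of the CGs tested, and the BXD male ratio was 0.502 to 0.510. Outside CCGG the base before the CG was A at 27.9%, against 25.5% of tested CGs above 50% in the B6 female. It was T at 20.6% against 22.5%, G at 25.2% against 26.8%, and C at 26.4% against 25.2%. The base after the CG was T at 29.1% against 26.1%, and C at 26.1% against 28.8%. These shares are descriptions, and the points share fragments.

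By position in genes, 898 isolated CGs (42.7%) were in introns, 941 (44.8%) intergenic, 168 (7.99%) in coding exons, 49 (2.33%) in UTRs and 22 (1.05%) within 1 kb upstream of a protein-coding gene. Of all tested CGs 35.9% were in introns, 28.6% intergenic, 15% coding, 10.3% in UTRs and 7.69% upstream. Among tested CGs above 50% in the B6 female, which the rule requires, 38.7% were in introns, 43.2% intergenic, 13.1% coding, 2.66% in UTRs and 0.713% upstream. CG density was low, with a median of 4 other CGs within 100 bp against 7 for all tested CGs and 4 for those above 50% in B6. By share of the CGs tested, chromosome 1 was highest (179, 0.360%), before chromosome 4 (206, 0.339%), and chromosome 10 lowest (69, 0.147%), below chromosome 16 (42, 0.158%). Successive members were a median of 341191 bp apart.

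Protein-coding genes that held at least 1 isolated CG numbered 854. Ephb2, a receptor for ephrin-B ligands, held 6, and Pcsk6, a proprotein convertase, and Arhgef10l held 5 each. By gene family, taken from the symbols, 12 isolated CGs lay in solute carrier (Slc) genes, 12 in ABC transporter genes, 9 in Zfp zinc-finger genes, 9 in potassium channel (Kcn) genes, 6 in collagen genes, 3 in protocadherin genes, 2 in cytochrome P450 genes and 0 in Hox genes. Shares are given of isolated CGs, of all tested CGs and of tested CGs above 50% in the B6 female, in that order. ABC transporter genes made up 0.571%, 0.198% and 0.243%, Slc genes 0.571%, 1.16% and 1.06%, and Zfp genes 0.428%, 0.954% and 0.840%. The shares were 0.428%, 0.418% and 0.402% for Kcn genes and 0.285%, 0.285% and 0.397% for collagen genes. They were 0.143%, 0.144% and 0.0945% for protocadherin genes and 0.0951%, 0.116% and 0.102% for cytochrome P450 genes. Hox genes held 5 of the 430886 tested CGs above 50% in the B6 female, so the rule left almost none to find.

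At the edge of the rule, the 3 isolated CGs nearest to the limit, chr10:19642301, an intron of Adcy7 and a CG 9302 bp from Ror2, had 50.5%, 50.7% and 50.8% in the B6 female. Just outside, CGs at Gm14317, Speer4f and Afap1 had 50% in the B6 female and 0% in the DBA female. Of the 263 isolated CGs read at least 10 times in all 8 mice, 221 had all F1 ratios between 0.25 and 0.75 and 254 were below 10% in the DBA male. Outside windows with at least 90% DBA tags in the library labelled B6 male, 164 of 234 met both and were above 50% in that library. Windows of mixed tags were kept among these 234.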

How the data were processed

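Liver RRBS libraries of 8 mice were analysed. Per the study's methods the authors aligned reads to mm9 with BS Seeker, kept unique reads, and sorted reads by SNPs other than C to T into B6, DBA, no SNP and unknown. The deposited files give, for each cytosine and class, counts of unmethylated and methylated reads, and a deposited methylation level as a fraction. Tables of the authors' own comparisons (4) hold their differential sites and were not used. Counts were summed over classes, CGs and strands were taken from the mm9 reference, and positions are 1-based. Samples were grouped by their labels, 1 mouse per group, so p-values across mice rest on these animals alone. Those of the tagged fit measure how the difference between tags varied over the 4 F1 mice. Those of the test between crosses measure the spread between animals of the same cross. Members and lists were chosen with earlier results of these data known.

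Members were found with at least 10 reads, a DBA level of 0, a difference above 0.50 and a distance of 100 bp. Levels are given with exact (Clopper-Pearson) 95% intervals, which cover counting error only. The binomial rule was run over all autosomal CGs. Tagged levels and the crosses were compared with limma 3.58.1 (R 4.3.3, two-sided, Benjamini-Hochberg over all CGs tested). In the tagged fit the mouse was a block, because both tags of a pair come from the same animal. The other tools were Python 3.11.15, scipy 1.17.1 and samtools 1.23.1. All tests were checked on simulated data before use; the test between crosses did not recover the differences put in. CGs named in the text were those read most deeply in coding exons, with tags, on both strands or with an unread opposite strand, those farthest from 0.5 in F1 mice, the extremes in male parents and those nearest to the limit; 1 of them, on chromosome 18, is not reported here. Alternatives were other read minimums, distances, differences, Fisher's exact test, no block and leaving out each F1 mouse.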

Additional observations from a re-analysis of the deposited data

Results flagged for a closer look

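At isolated CGs the library labelled B6 male held 4636 reads with the DBA tag beside 29135 with the B6 tag, against 163 beside 87792 in the B6 female. What drew attention to it was a signal in read classes that the comparison of the male parents had summed over. Isolated CGs in windows of mostly DBA tags were at 0% in that library at the median, as given above. How the DBA reads came to be there was not tested.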

How the results depend on the processing

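A minimum of 20 reads left fewer CGs to test and gave 213 of 278 isolated CGs called between the male parents (76.6%, background 0.293%), 237 of 244 between the tags of the DXB female (background 5.86%) and 223 of 232 between those of the DXB male (background 5.50%). With only reads that carried no SNP, the median F1 ratio was 0.498, 0.5, 0.482 and 0.48 in the BXD female, BXD male, DXB female and DXB male, which moved it by more than the SD of 0.0037 over the 4 mice. The share of opposite strands at zero in the DBA female was 76.8% at a minimum of 20 reads and 73.3% with 1 strand per dinucleotide, an alternative chosen after seeing the data. Neither is a check of the share, since an opposite strand that is itself an isolated CG is at zero by the rule, and counting 78 dinucleotides once moved it. The other 47 alternatives moved no such value past its limit, and the number of isolated CGs ran from 1415 to 2824. Tags are paired within a mouse, and the fit without the mouse block also gave 246 calls. Leaving out 1 F1 mouse gave from 242 of 253 (95.7%, background 5.43%) to 318 of 340 (93.5%, background 5.48%) calls between tags, where more CGs could be tested without the BXD male, and 0 between crosses, where a cross left with 1 mouse is assumed to vary like the other. Depth limits a zero at 10 reads to a level below 30.8%.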
